A study of Arabidopsis thaliana with 6 samples.

Results

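UDP-glycosyltransferases (UGTs) move a sugar, most often glucose, from a UDP-sugar onto small acceptor molecules. Plants use them to inactivate, store or solubilise hormones, flavonoids, lignin precursors, defence compounds and foreign chemicals, and the number after UGT in a gene's symbol gives its sequence family. The UGT genes were taken as every gene of Arabidopsis thaliana whose symbol is UGT followed by a number and which had a probe set of its own, shared with no other gene. This gave 47 genes of 11 families, out of 13350 genes with a probe set of their own and 22746 probe sets tested. Among the genes of TAIR10.1, 58 have such symbols. Each of the 47 had 1 probe set, so that no choice between probe sets was needed. The rule itself used no measured value, but it was chosen with earlier results of these data known.

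The samples were whole seedlings aged 14 days, 3 arrays of the pkl-1 mutant and 3 arrays of the Col-0 wild type. The gene mutated in pkl-1 is PICKLE, whose product is a CHD3-type ATPase that remodels chromatin. Both genotypes were grown alike on agar plates of Murashige and Skoog medium under continuous light, and the study asked which genes are expressed differently in the mutant. The samples of a genotype are labelled as biological replicates, with no word on how many seedlings each holds. Since whole seedlings were used, more cells of a type and more RNA per cell cannot be told apart.

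Values are GCRMA signals in log2 units, in which 1 unit is a 2-fold difference. Array medians lay between 5.03 and 5.13, and correlations across probe sets were at least 0.985 within a genotype and at least 0.9751 between genotypes. The probe set of PICKLE is unnamed here, so that the genotype labels were not checked against it. Shoot markers were bright, while of the 3 root markers measured 1 was bright and 2 lay under the array median. The antenna gene LHCB4.1 stood at 12.79 ± 0.08 in pkl-1, against 12.90 ± 0.07 in wild type, and the root beta-glucosidase gene PYK10 at 11.96 ± 0.11 in pkl-1, against 11.95 ± 0.16 in wild type (SD, n = 3 each). The root hair expansin genes EXPA7 and EXPA18 were at 3.56 ± 0.38 and 4.58 ± 0.23 in pkl-1, against 3.89 ± 0.42 and 4.75 ± 0.40 in wild type, with overlapping groups. The means of the 2 seed genes and 2 flower genes measured lay between 1.45 and 2.21 in both genotypes, near the lower end of the signal. Of 84 marker genes listed, 12 were measured. Of these 12, the antenna gene LHCB4.2 (-0.50 ± 0.09 log2 units, SE) and the senescence gene SAG29 (-1.80 ± 0.25) were lower in pkl-1 past the threshold. Over all probe sets 2.37% were called, with 1.31% called lower. The other senescence gene measured, WRKY53, was at 4.89 ± 0.16 in pkl-1, against 5.34 ± 1.80 in wild type (SD, n = 3 each), with overlapping groups. LHCB4.2 lost its call without a trend (limma adjusted p = 0.111), against a 1.2-fold difference (0.427) and in 4 of the 6 fits that leave out 1 array, those without a wild-type array or pkl-1 replicate 2 (0.0753 to 0.122), and SAG29 without pkl-1 replicate 2 (0.0744). The part that tissue composition plays in the UGT values was not tested.

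Of the 47 UGT genes, 1 was changed in pkl-1, UGT85A5, which rose 2.46-fold. The other 46 did not pass, 7 of them with an unadjusted p under 0.05 (limma, Benjamini-Hochberg adjustment over all probe sets tested, adjusted p threshold 0.05). The share of UGT genes called, 2.13%, stood beside 2.37% of all probe sets, so that the family was not called more often than the array as a whole. By direction, 1.06% of all probe sets were called higher and 1.31% lower. The log2 changes of the UGT genes ran from -0.48 to 1.3 with a median of 0.09, against a median of 0.01 over all probe sets. Positive changes numbered 29 and negative ones 18. At an unadjusted p under 0.05 there were 8 UGT genes, 17% of them, against 14.9% of all probe sets.

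**Figure D1:**
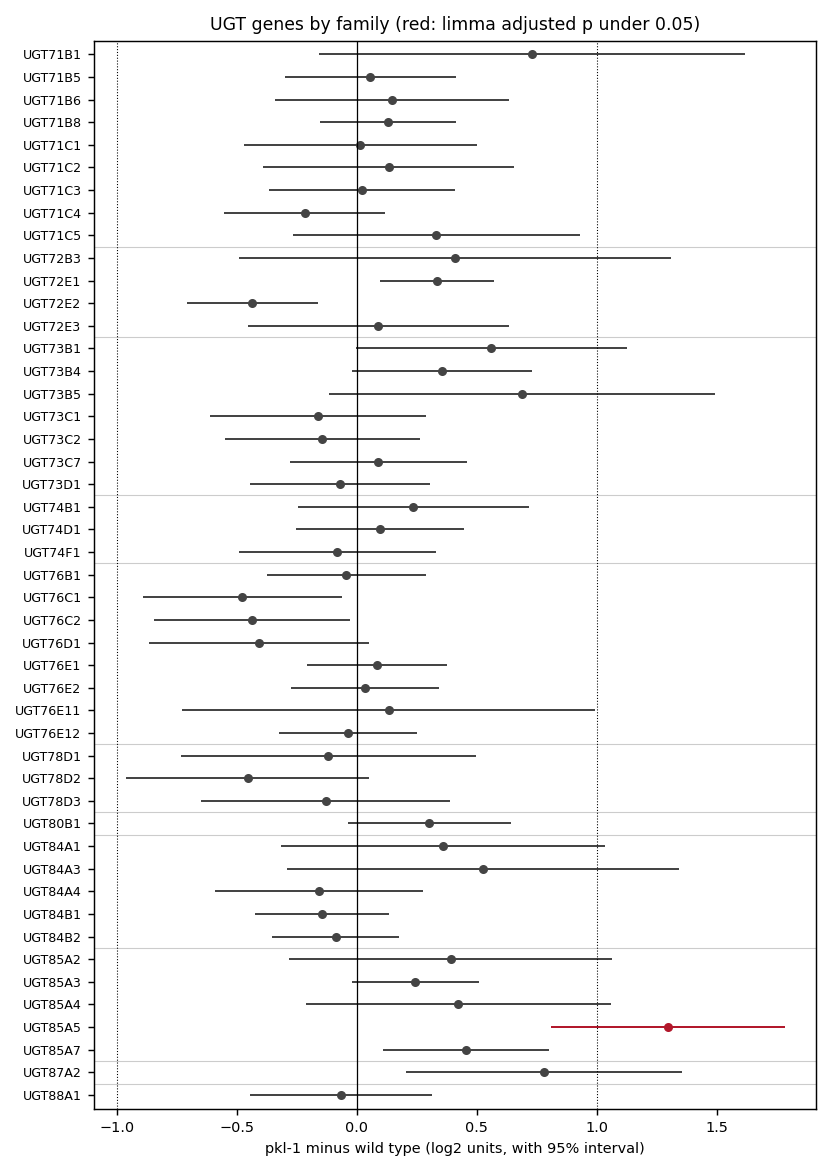
Log2 change (pkl-1 minus wild type, x axis) of the 47 UGT genes, down the page by family with grey lines between families; points are estimates, lines are 95% intervals of the limma fit without adjustment for the number of genes, and dotted lines mark a 2-fold difference. UGT85A5 (red, 1.3) alone is past the adjusted threshold, and the intervals of 37 of the other 46 lie wholly between the dotted lines.

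Of the 46 genes that did not pass, 37 had a 95% interval of the log2 change within 2-fold in both directions. Of these 37, 10 were under the lower quartile of signal, where 99.5% of all probe sets had such an interval and where it limits little. At or above that quartile the interval lay within 2-fold for 73% of the UGT genes, UGT85A5 included, against 83.1% of all probe sets. The 9 whose intervals reached past 2-fold, all on the side of higher pkl-1 levels, were UGT71B1, UGT72B3, UGT73B1, UGT73B5, UGT84A1, UGT84A3, UGT85A2, UGT85A4 and UGT87A2. The median half-width of the interval was 0.41 log2 units for the UGT genes and 0.36 for all probe sets.

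The UGT genes covered the range of the array, with means over the 6 arrays between 1.36 and 10.6. The array's lower quartile, median and upper quartile of probe set means were 2.14, 5.09 and 7.65, and 10, 15, 13 and 9 UGT genes lay in the bands from lowest to highest. Probe sets differ in their affinity, so that these levels place a gene above the background rather than rank transcripts. The 10 genes under the lower quartile were UGT71B5, UGT71B8, UGT73C1, UGT73C2, UGT73C7, UGT76E1, UGT76E12, UGT84B1, UGT84B2 and UGT85A3. Their changes ran from -0.16 to 0.24, and since GCRMA compresses differences near the background, small differences of these genes are not measured well. In the top band were UGT71C4, UGT72E1, UGT72E2, UGT74B1, UGT74D1, UGT78D1, UGT78D2, UGT85A2 and UGT88A1, with changes between -0.45 and 0.39.

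**Figure D2:**
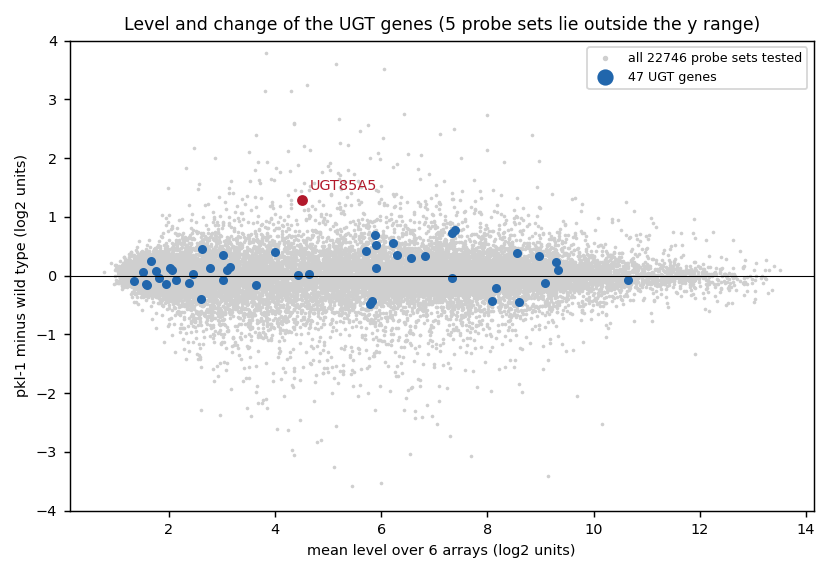
Log2 change (pkl-1 minus wild type, y axis) against the mean level over 6 arrays (x axis, log2 units) for the 47 UGT genes (blue, UGT85A5 in red) over the 22746 probe sets tested (grey, 5 of them outside the range of the y axis). The UGT genes spread over levels from 1.36 to 10.6 and, apart from UGT85A5, lie between -0.48 and 0.78.

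The UGT85 family holds the one changed gene. UGT85A5 (AT1G22370) had 4.90, 5.29 and 5.30 log2 units in pkl-1 replicates 1 to 3, against 3.62, 4.04 and 3.94 in wild type replicates 1 to 3. All 3 pkl-1 arrays lay above all wild-type arrays, with no overlap. The difference was 1.3 ± 0.21 log2 units (SE; limma adjusted p = 0.0240), a fold of 2.46 with a 95% interval of 1.76 to 3.43. The call was lost when any 1 array other than pkl-1 replicate 1 was left out (limma adjusted p 0.0612 to 0.114), while the log2 change stayed between 1.17 and 1.43. It was also lost in a test against a 1.2-fold difference (limma adjusted p = 0.0625).

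The other 4 measured UGT85 genes also had positive differences, none past the threshold, and the median of the 5 was 0.42. UGT85A7 had 2.80, 2.78 and 3.01 in pkl-1, against 2.56, 2.38 and 2.29 in wild type, close to the background but without overlap (0.46 ± 0.15, SE; limma adjusted p = 0.193). UGT85A3 was under the lower quartile on every array, at 1.72 to 1.83 in pkl-1, against 1.37 to 1.70 in wild type (0.24 ± 0.11). UGT85A4 had 5.70, 6.05 and 6.05 in pkl-1, against 4.99, 6.03 and 5.51 in wild type, which overlap. UGT85A2 had 8.27, 8.78 and 9.22 in pkl-1, against 7.97, 8.24 and 8.88 in wild type, a difference of 0.39 ± 0.29 with an interval from -0.28 to 1.06.

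UGT85A5 lies in a row of UGT85A genes on chromosome 1. In the TAIR10.1 gene order UGT85A7, UGT85A2, UGT85A5 and UGT85A3 follow each other with no other protein-coding gene between them, and UGT85A1 comes next, with no value used here. UGT85A4 is on the same chromosome but apart from the row. Neighbouring UGT85A genes are close relatives in sequence, and how far the probe sets of UGT85A5 and UGT85A2 bind each other's transcripts was not tested. UGT85A2 differed by 0.39 log2 units where UGT85A5 differed by 1.3. Within 10 genes on each side of UGT85A5, 13 others were measured, 3 of them UGT85A genes. Of the 10 that are not UGT genes, 2 were changed, and both were lower in pkl-1, where 2.37% of all probe sets were called and 1.31% were called lower. These were AT1G22430, at 5.57 ± 0.32 in pkl-1, against 7.22 ± 0.19 in wild type (SDs of 3 arrays; limma adjusted p = 0.00910), and AT1G22440, at 7.15 ± 0.11 in pkl-1, against 7.87 ± 0.19 in wild type (limma adjusted p = 0.0427). Both belong to the alcohol dehydrogenase family and were picked for naming once their values were known. The call of AT1G22440 ended when any single array was left out (limma adjusted p 0.0575 to 0.140) and that of AT1G22430 without wild type replicate 2 (0.0558). AT1G22440 also missed the threshold without a trend (0.0514) and against a 1.2-fold difference (0.232). The changes of the other 8 lay between -0.21 and 0.20.

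**Figure D3:**
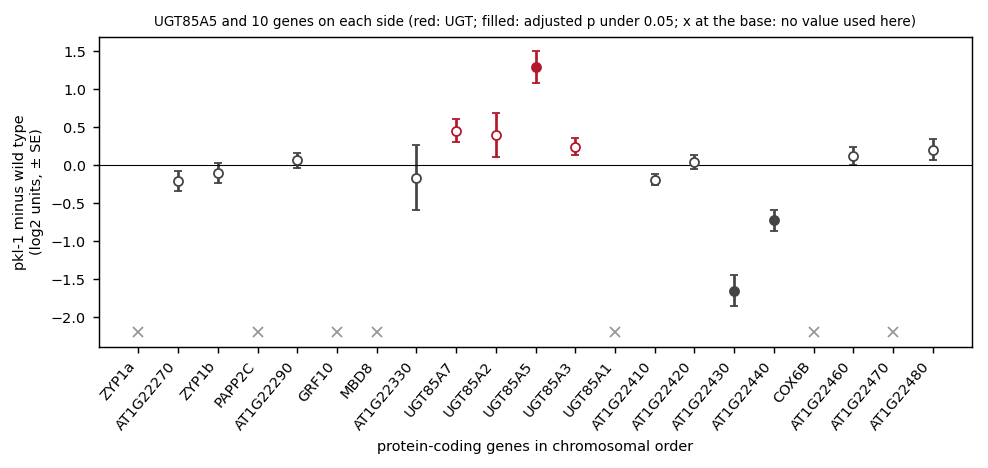
Log2 change (pkl-1 minus wild type, y axis, points with SE bars) of UGT85A5 and the 10 protein-coding genes on each side of it in chromosomal order (x axis); UGT genes are red, filled points are past the adjusted threshold, and crosses at the base mark genes with no value used here. The 4 measured UGT85A genes of the row lie above 0, and AT1G22430 and AT1G22440 lie at -1.65 and -0.72.

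UGT87A2, a gene whose loss is known to delay flowering, had the next largest difference. Its levels were 7.22, 8.23 and 7.92 in pkl-1, against 6.90, 6.95 and 7.17 in wild type. The groups did not overlap, although pkl-1 replicate 1 lay close to the wild-type arrays. The difference was 0.78 ± 0.25 log2 units (SE; limma adjusted p = 0.182), and without pkl-1 replicate 1 it was 1.07 and passed (limma adjusted p = 0.0478). The single UGT88 gene, UGT88A1, had 10.61 ± 0.21 in pkl-1, against 10.67 ± 0.29 in wild type (SD, n = 3 each), with an interval of the difference from -0.44 to 0.31. The single UGT80 gene, UGT80B1, encodes a sterol glucosyltransferase needed for the seed coat. It had 6.85, 6.64 and 6.63 in pkl-1, against 6.44, 6.51 and 6.26 in wild type, which do not overlap (0.30 ± 0.14; limma adjusted p = 0.389).

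In all, 10 of the 47 genes had groups that did not overlap, 7 higher and 3 lower in pkl-1. This is 21.3%, against 21.0% of all probe sets, of which 10.6% were higher and 10.4% lower. The share among UGT genes is thus that of the array. Besides UGT85A3, UGT85A5, UGT85A7, UGT87A2 and UGT80B1, the higher ones were UGT72E1 and UGT73B4, and the lower ones were UGT72E2, UGT76C1 and UGT76C2.

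**Figure D4:**
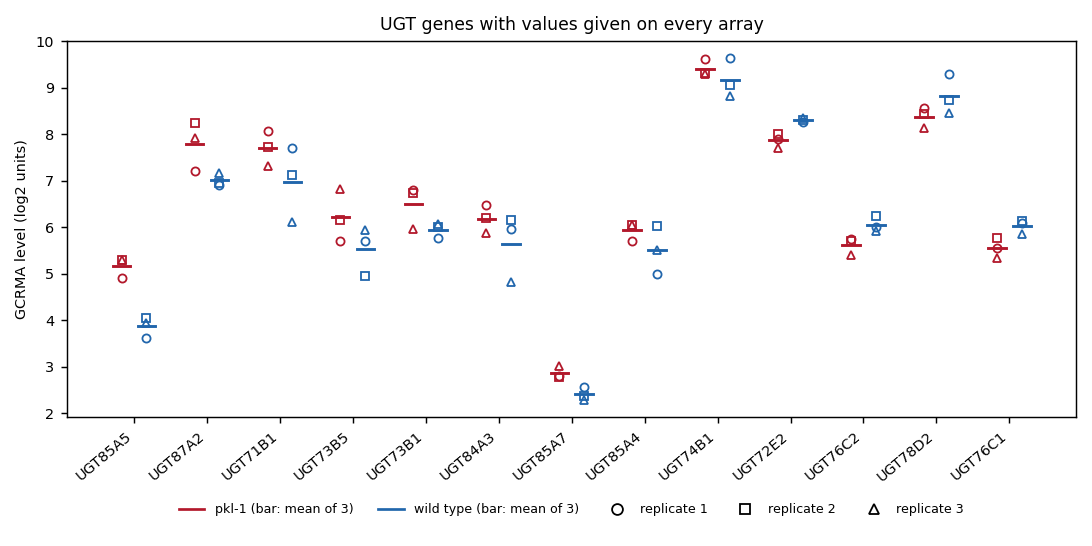
GCRMA level (y axis, log2 units) on each array of 13 UGT genes, the 12 with the largest changes in size and UGT74B1, ordered along the x axis by change; pkl-1 is red and left of wild type in blue, symbols mark replicate numbers and bars mark means of 3. UGT85A5 shows the widest gap between the genotypes. In UGT71B1, UGT73B5, UGT74B1 and UGT84A3 the arrays of each genotype spread over a wider range than the means differ. So do the pkl-1 arrays of UGT73B1 and UGT87A2 and the wild-type arrays of UGT78D2 and UGT85A4.

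UGTs that act on hormones were at most moderately different. UGT76C1 and UGT76C2 add glucose to the ring nitrogens of cytokinins, which inactivates them, and both genes were on the lower side in pkl-1. UGT76C1 had 5.55, 5.76 and 5.34 in pkl-1, against 6.09, 6.13 and 5.86 in wild type. UGT76C2 had 5.75, 5.70 and 5.41 in pkl-1, against 6.01, 6.24 and 5.91 in wild type. Neither pair of groups overlapped, and the differences of -0.48 ± 0.18 and -0.44 ± 0.17 log2 units (SE) did not pass (limma adjusted p = 0.256 and 0.290). The 2 genes stand next to each other on chromosome 5.

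The 3 measured UGTs for abscisic acid, whose glucose ester is a storage form of the hormone, had small positive differences. UGT71C5 was at 7.0 ± 0.39 in pkl-1, against 6.67 ± 0.40 in wild type (SD, n = 3 each), and UGT71B6 and UGT71B8 differed by 0.15 ± 0.21 and 0.13 ± 0.12 (SE). Of 3 UGTs for auxin, UGT84B1 and UGT84B2 stayed near background in both genotypes, at means of 1.31 to 1.65. UGT74D1, which acts on auxin and its oxidised form, was at 9.37 ± 0.09 in pkl-1, against 9.27 ± 0.30 in wild type (SD, n = 3 each), with an interval of the difference from -0.25 to 0.44.

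UGTs of salicylate and related defence compounds differed little. UGT76B1, which glucosylates salicylate, N-hydroxypipecolate and isoleucic acid and thereby dampens immunity, was at 7.31 ± 0.20 in pkl-1, against 7.35 ± 0.10 in wild type (SD, n = 3 each; interval of the difference -0.37 to 0.28). UGT71C3, which acts on methyl salicylate, differed by 0.02 ± 0.17 (SE). UGT74F1, a salicylate glucosyltransferase, was close to the background, at 2.1 in pkl-1, against 2.18 in wild type. A pair of stress-inducible genes next to each other on chromosome 2 had larger positive differences that did not pass. UGT73B5 had 5.70, 6.14 and 6.82 in pkl-1, against 5.70, 4.95 and 5.94 in wild type (0.69 ± 0.34, SE; limma adjusted p = 0.419). UGT73B4 had 6.30, 6.53 and 6.61 in pkl-1, against 6.28, 5.96 and 6.13 in wild type (0.36 ± 0.16). UGT73B5 overlapped between the genotypes, and the closest arrays of UGT73B4 were nearly equal.

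The flavonoid UGTs of the UGT78D group, which attach sugars at the third position of the flavonoid ring, all had negative differences without a call. UGT78D2, which transfers glucose to flavonols and anthocyanidins, had 8.56, 8.43 and 8.13 in pkl-1, against 9.30, 8.73 and 8.45 in wild type (-0.45 ± 0.22, SE; limma adjusted p = 0.390). UGT78D1, a flavonol rhamnosyltransferase, was at 9.02 ± 0.26 in pkl-1, against 9.14 ± 0.55 in wild type (SD, n = 3 each), and the arabinosyltransferase UGT78D3 at 2.32 ± 0.24 in pkl-1, against 2.45 ± 0.39 in wild type. UGT73B1, which glucosylates flavonoids in vitro, had 6.80, 6.74 and 5.96 in pkl-1, against 5.76, 5.99 and 6.07 in wild type. Its replicate 3 in pkl-1 lay within the wild-type range while the other pkl-1 arrays lay above it, for a difference of 0.56 ± 0.24 (limma adjusted p = 0.335).

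Among UGTs of phenylpropanoids, 2 relatives that act on lignin precursors differed in opposite directions without passing. UGT72E2, which makes coniferin from coniferyl alcohol, had 7.89, 8.0 and 7.70 in pkl-1, against 8.26, 8.30 and 8.34 in wild type (-0.43 ± 0.12, SE; limma adjusted p = 0.117). UGT72E1, which acts on the aldehydes of these precursors, had 9.11, 9.27 and 9.03 in pkl-1, against 8.72, 8.85 and 8.82 in wild type (0.34 ± 0.10; limma adjusted p = 0.160). Neither gene's groups overlapped, and the difference between the 2 genes' responses was not tested. UGT72E3 was at 3.14 ± 0.39 in pkl-1, against 3.04 ± 0.22 in wild type (SD, n = 3 each).

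UGT84A enzymes make glucose esters of sinapate and other hydroxycinnamates. UGT84A3 had 6.47, 6.19 and 5.86 in pkl-1, against 5.97, 6.15 and 4.82 in wild type (0.53 ± 0.35, SE; limma adjusted p = 0.554). The 4.82 of wild type replicate 3 stood well below the other arrays, and without it the difference was 0.11. Its neighbours UGT84A1 and UGT84A4 differed by 0.36 ± 0.29 and -0.16 ± 0.18, at levels of 2.84 to 3.73.

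UGT74B1 adds glucose to thiohydroximates in the synthesis of glucosinolates, the sulfur-containing defence compounds of this plant family. It had 9.62, 9.31 and 9.29 in pkl-1, against 9.64, 9.05 and 8.82 in wild type. The groups overlapped, and the difference of 0.24 ± 0.21 (SE) had an interval from -0.24 to 0.71. UGT71B1 had 8.07, 7.73 and 7.32 in pkl-1, against 7.70, 7.12 and 6.12 in wild type, with an overlap (0.73 ± 0.38; limma adjusted p = 0.438). Its difference was 0.298 without wild type replicate 3 and 1.09 without wild type replicate 1.

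The remaining 14 genes, of the UGT71, UGT72, UGT73 and UGT76 families, did not pass and differed by -0.41 to 0.41. The ends of this range were UGT76D1, at 2.40 ± 0.33 in pkl-1, against 2.80 ± 0.16 in wild type, and UGT72B3, at 4.21 ± 0.18 in pkl-1, against 3.8 ± 0.83 in wild type (SD, n = 3 each). UGT71C4, bright in both genotypes, was at 8.06 ± 0.22 in pkl-1, against 8.28 ± 0.15 in wild type. UGT76E11 was at 5.96 ± 0.57 in pkl-1, against 5.83 ± 0.60 in wild type. UGT76E1, for which a role in jasmonate turnover is known, was near background at 1.80 in pkl-1, against 1.71 in wild type. Differences of UGT71B5, UGT71C1, UGT71C2, UGT73C1, UGT73C2, UGT73C7, UGT73D1, UGT76E2 and UGT76E12 lay between -0.16 and 0.13.

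By family, no change was called outside UGT85. Positive and negative differences numbered 8 and 1 among the 9 UGT71 genes, 3 and 1 among the 4 of UGT72, 4 and 3 among the 7 of UGT73, 2 and 1 among the 3 of UGT74, 3 and 5 among the 8 of UGT76, 0 and 3 among the 3 of UGT78, and 2 and 3 among the 5 of UGT84. Over all probe sets 52.5% were positive. Median log2 changes were 0.13 for UGT71, 0.21 for UGT72, 0.09 for UGT73, -0.04 for UGT76 and -0.09 for UGT84. Differences between families were not tested.

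Many UGT genes sit beside a relative. With at most 2 protein-coding genes between successive members, 31 of the 47 fell into 13 groups of neighbours. In 9 of the 13 groups all measured members had a difference of the same sign, most of them far from any call, and neighbours may share hybridisation, so that this is a description only.

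Over all probe sets, arrays of equal replicate number shared a pattern for replicates 1 and 3 but not for replicate 2. Deviations from the genotype means correlated at 0.485, -0.0175 and 0.576 for replicates 1, 2 and 3. In 24 of the 47 genes the highest pkl-1 array and the highest wild-type array had the same number, which is 51.1% against 43.5% of all probe sets. At or above the lower quartile of signal this held for 48.6% of the UGT genes, against 46.6% of all probe sets. Replicate 1 was highest in both genotypes for 10 UGT genes, replicate 2 for 7 and replicate 3 for 7. For replicate 1 this is 21.3% of the UGT genes, against 17.6% of all probe sets. For replicates 2 and 3 it is 14.9% each, against 11.9% and 14% of all probe sets. The 10 with replicate 1 highest include UGT71B1, UGT72B3, UGT74B1, UGT78D1, UGT78D2 and UGT76E11. In UGT76E11, for example, replicate 1 was at 6.60 in pkl-1, against 6.51 in wild type, and the other arrays lay between 5.37 and 5.77. The median standard deviation within a genotype was 0.23 log2 units for the UGT genes and 0.18 for all probe sets. Whether the replicate numbers mark a shared batch is not stated in the labels.

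Genes that the gene table lists under another symbol but that are known as UGTs were looked at beside the 47. None of the 4 measured passed (limma, 0 with an unadjusted p under 0.05). The anthocyanin gene UF3GT (UGT79B1) was at 7.01 ± 0.23 in pkl-1, against 7.46 ± 0.36 in wild type, and GT72B1 (UGT72B1), which conjugates chlorinated phenols and monolignols, at 8.92 ± 0.33 in pkl-1, against 8.89 ± 0.51 in wild type (SD, n = 3 each). The sterol glucosyltransferase gene SGT (UGT80A2) differed by 0.15 ± 0.15 and AT5G54010 (UGT79B6) by -0.20 ± 0.11, the last at levels near background.

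The pathways that supply or use UGT products were covered thinly. Of 297 genes in 11 lists, 46 were measured and 4 changed, 2 higher and 2 lower, which is 8.70% against 2.37% of all probe sets. Their median log2 change was -0.03. Of these 4, 3 were beta-glucosidases, the enzymes that take glucose off such conjugates, and the lists were chosen with earlier results of these data known.

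Of 47 beta-glucosidase genes 22 were measured, with 2 higher, 1 lower and a median log2 change of 0.00. The called share was 13.6%, against 2.37% of all probe sets, with 1.06% called higher and 1.31% lower. In 8 of the 22 (36.4%) the groups did not overlap, 2 higher and 6 lower in pkl-1, against 21.0% of all probe sets. An unadjusted limma p under 0.05 was reached by 8 (36.4%), against 14.9% of all probe sets. BGLU28, which cleaves glucosinolates under sulfur deficiency, had 4.99, 4.28 and 5.18 in pkl-1, against 2.82, 2.80 and 3.04 in wild type. The groups lay far apart, with a 3.80-fold rise (1.93 ± 0.26, SE; limma adjusted p = 0.0127) that starts from a low level. BGLU44, a member with beta-mannosidase activity, had 11.35, 11.22 and 10.86 in pkl-1, against 10.58, 10.44 and 10.32 in wild type (0.70 ± 0.13; limma adjusted p = 0.0435). BGLU40 had 7.81, 7.76 and 7.21 in pkl-1, against 8.55, 8.45 and 8.45 in wild type (-0.89 ± 0.17; limma adjusted p = 0.0410). All 3 lost their calls without at least 1 array. BGLU28 did so without wild type replicate 2 (limma adjusted p = 0.0668), BGLU44 without any but pkl-1 replicate 3 (0.0595 to 0.183) and BGLU40 without any of the 6 (0.0544 to 0.136). BGLU44 and BGLU40 also missed the threshold without a trend (0.0893 and 0.0589) and against a 1.2-fold difference (0.255 and 0.164).

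**Figure D5:**
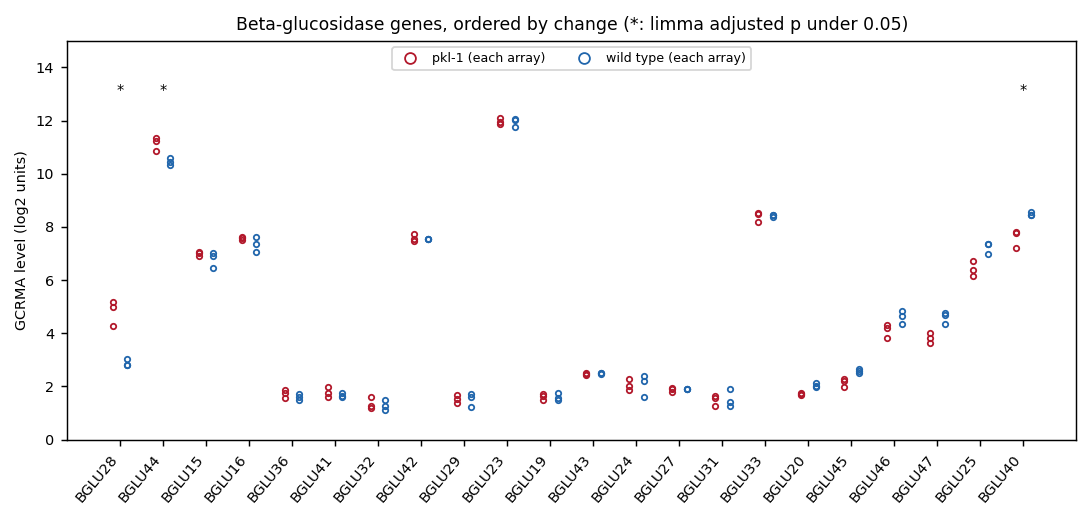
GCRMA level (y axis, log2 units) on each array of the 22 beta-glucosidase genes measured, ordered along the x axis by change, with pkl-1 in red left of wild type in blue; stars mark a limma adjusted p under 0.05. BGLU28 (4.28 to 5.18 in pkl-1, 2.80 to 3.04 in wild type) has the widest gap, and BGLU23, the gene also called PYK10, is nearly level.

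In the list of auxin conjugation, 5 genes were measured and GH3.17, which joins auxin to glutamate, fell. It had 6.25, 6.43 and 6.29 in pkl-1, against 6.94, 7.24 and 7.04 in wild type (-0.76 ± 0.14, SE; limma adjusted p = 0.0399), and its call was lost without any 1 array (0.0620 to 0.137) and against a 1.2-fold difference (0.202). GH3.3 and GH3.5 were at 0.36 ± 0.12 and 0.43 ± 0.36, and GH3.9 and GH3.1 at -0.31 ± 0.19 and -0.04 ± 0.16. None of the 20 genes first listed in the remaining 9 lists passed (limma). An unadjusted p under 0.05 was reached by 4 of the 20, and by 14.9% of all probe sets. Glucosinolate genes numbered 6, with the transporter genes GTR1 and GTR2 at 0.47 ± 0.36 and 0.25 ± 0.10, and GSTU20 and BCAT4 with the highest signals at 0.17 ± 0.11 and 0.06 ± 0.15. The other members, AOP3 and CYP79A2, were at -0.15 ± 0.18 and -0.13 ± 0.11, at levels near background. Flavonoid genes numbered 3, with CHIL at -0.22 ± 0.16, DFR at -0.09 ± 0.11 and BAN at -0.05 ± 0.12. Lignin genes numbered 3, with HCT at -0.03 ± 0.14 and REF1 at -0.22 ± 0.12. The third, the peroxidase gene PRX52, had the largest difference of its list, at 1.59 ± 0.07 in pkl-1, against 2.41 ± 0.52 in wild type, without overlap (-0.82 ± 0.24, SE; limma adjusted p = 0.146), at levels near background. The salicylate list had SAG101 at 0.88 ± 0.32 and BSMT1 at 0.02 ± 0.11, and the cytokinin list the response regulators ARR15 and ARR16 at 0.26 ± 0.26 and -0.06 ± 0.57. In the detoxification list GSTU22 and GSTU25 were at -0.85 ± 0.26 and -0.75 ± 0.37. USP, of UDP-sugar supply, was at -0.02 ± 0.10 and BGLU33, of the abscisic acid list, at -0.03 ± 0.12. No brassinosteroid gene was measured by a named probe set.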

How the data were processed

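RNA of 14-day whole seedlings was measured on Affymetrix arrays, 3 of pkl-1 and 3 of wild type. The deposited table holds log2 signals, 1 per probe set, which the authors made with GCRMA, which subtracts a probe-dependent background, normalizes the arrays and summarises the probes of a set, per the submitters' processing notes; its version and the array's build are not stated there, and the log2 scale was read from the values (0.597 to 13.69). Of 22810 probe sets 64 controls were left out. The platform's annotation paired 13513 of the rest with 1 gene, 503 with several and left 8730 unnamed here; 3 of those with several held a UGT and name no gene. Symbols were updated through the TAIR10.1 gene table, which held 13436 of the single-gene probe sets.

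Each probe set was tested for pkl-1 minus wild type with limma 3.58.1 (R 4.3.3; lmFit and eBayes with trend, 2-sided) over all 22746 probe sets, with Benjamini-Hochberg adjustment and a threshold of 0.05. Intervals are 95% and not adjusted for the number of genes. The fit was run on simulated arrays with the means and spreads of the data, drawn independently of each other. That run does not cover patterns shared by arrays of equal replicate number. A gene that did not pass is not thereby shown to be unchanged. The number of arrays limits the precision. Nothing in the labels ties equal replicate numbers to a shared batch. All members could be named; array values are given for members called in any fit, the 12 largest changes, UGT74B1 and UGT85A5, and, added after values were seen, other UGT85 genes and those whose groups do not overlap. From each pathway list up to 4 called genes or 2 bright ones are named, and GTR1, GTR2, GH3.3 and GH3.5 were added. After their values were seen, BAN, PRX52, EXPA7, EXPA18, WRKY53, AOP3, CYP79A2, GH3.1 and GH3.9 were added too. The members and lists were chosen with earlier results of these data known. Figures used matplotlib 3.10.9 in Python 3.11.15.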

Additional observations from a re-analysis of the deposited data

How the results depend on the processing

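UGT85A5 kept its direction under all 14 alternatives run and was called under no trend, a robust prior, removal of dim probe sets, quantile normalization, median centring, array weights and the replicate block (log2 change 1.27 to 1.32, limma adjusted p 0.00674 to 0.0234). The count of changed UGT genes, 1 (1 higher, 0 lower), was 0 at an adjusted p under 0.01 and 0 against a 1.2-fold difference, both stricter by construction, and 0 to 2 with 1 array left out, all of them higher. With the replicate number as a block it was 3, all higher: UGT85A5, UGT71B1 (adjusted p = 0.0431) and UGT87A2 (0.0440). All changed probe sets then numbered 1518 (6.67%) against 540, and the cause was not tested. Over the 8 other settings that keep all arrays, the lowest limma adjusted p of some genes came close without passing. This lowest value was 0.0521 for UGT85A2 (0.601 in the main fit) and 0.0641 for UGT72E1 (0.160), both higher in pkl-1. It was 0.0567 for UGT78D2 (0.390 in the main fit) and 0.0587 for UGT72E2 (0.117), both lower. Deviations from the genotype means correlated at 0.485, -0.0175 and 0.576 for replicates 1, 2 and 3. The correlation was -0.51 between pkl-1 replicate 3 and wild type replicate 1. Between pkl-1 replicate 1 and wild type replicate 3 it was -0.562. Replicates 1 and 3 thus shared a pattern by number, while replicate 2 did not. The labels state no pairing and the main fit leaves the number out, so its SEs and p-values do not account for this pattern. All changed probe sets numbered 111 at 0.01, 981 at 0.10, 186 against 1.2-fold and 123 to 303 with 1 array left out. Changed pathway genes, 4 in the main fit, numbered 2 without a trend, 8 with the block, 0 at 0.01, 1 against 1.2-fold and 0 to 2 with 1 array left out. The median log2 change of the UGT genes, 0.09, stayed between 0.0554 and 0.133 in every alternative, also with the 4 UGTs of other symbols added, an alternative chosen after seeing the data. Using platform symbols gave the same members, and averaging probe sets per gene was not run, as each gene had 1.

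Of 648 values of single UGT genes under alternatives, 31 changed sign, in 20 genes that had not passed. With array weights UGT71C1 was at -0.0213. With 1 array left out, log2 changes ran from -0.068 to 0.166 for UGT71B5, -0.0172 to 0.31 for UGT71B6, -0.0859 to 0.16 for UGT71C1, -0.0575 to 0.315 for UGT71C2, -0.0282 to 0.0554 for UGT71C3, -0.0102 to 0.823 for UGT72B3, -0.126 to 0.246 for UGT72E3, -0.352 to 0.0404 for UGT73C1, -0.236 to 0.0363 for UGT73C2, -0.0507 to 0.215 for UGT73C7, -0.176 to 0.0682 for UGT74F1, -0.127 to 0.0642 for UGT76B1, -0.0177 to 0.145 for UGT76E1, -0.187 to 0.472 for UGT76E11, -0.123 to 0.0532 for UGT76E12, -0.0107 to 0.104 for UGT76E2, -0.289 to 0.198 for UGT78D1, -0.307 to 0.081 for UGT78D3, -0.17 to 0.00823 for UGT84B2 and -0.233 to 0.0462 for UGT88A1. The direction of these 20 genes is therefore not settled by these arrays. A sign kept under every alternative does not by itself settle the direction of a gene either. In the main fit the unadjusted interval of the log2 change excluded 0 for 8 of the 47 UGT genes. UGT74D1, for example, kept its sign, but its interval ran from -0.248 to 0.442.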
